A study of Mus musculus with 6 samples.

Results

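The genes described here encode the class I histone deacetylases HDAC1, HDAC2, HDAC3 and HDAC8 and the corepressor subunits that carry them, NCOR1, TBL1X, TBL1XR1, GPS2 and SIN3A. The 9 genes were chosen by name, and their values were read from the probe sets annotated with exactly 1 symbol. Of the 9, 7 genes had such a probe set, out of 17097 genes in all, and these 7 had 17 of the 45037 probe sets. Hdac3 and Ncor1 had no probe set under a single symbol and were not analysed here. Each gene is given by its brightest probe set over the 6 arrays, with its other probe sets beside it. Dim probe sets were kept, so all 7 measured genes entered every count.

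Histone deacetylases remove acetyl groups from histone tails, which tightens chromatin and lowers transcription. HDAC1 and HDAC2 work as a pair inside the SIN3, NuRD and CoREST complexes, and HDAC3 works inside the NCoR complex, where GPS2, TBL1X and TBL1XR1 are fixed subunits. HDAC7 belongs to the class IIa enzymes, which have little deacetylase activity of their own and bind the HDAC3 complex through NCoR.

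The cells were pro-B cells, a B cell precursor stage of the bone marrow, purified by flow cytometry on the markers B220+CD43+IgM-. The study has 3 arrays of pro-B cells from HDAC7 deficient mice, described as conditional, and 3 arrays of pro-B cells from wild type mice, all labelled biological replicates. The sources used here do not give the Cre driver, the deleted exons, the strain or the age of the mice. Small RNA amounts were amplified before hybridisation to Affymetrix perfect-match mouse arrays, and values are log2 units, in which a difference of 1 is a doubling of signal.

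Wild-type replicate 3 stood apart, and the main results are given with and without it. Its correlations with the other arrays over all probe sets ran from 0.70 to 0.82, against a best correlation of 0.98 to 0.99 for each of the other 5 arrays, and its interquartile range was 1.72 against 2.27 to 2.93. Its control probe sets for Actb differed by 1.69 between the 3' end and mid-transcript, against 0.16 to 0.26 elsewhere. Those for Gapdh did not stand apart, with a difference of 0.25 against 0.22 to 0.33 elsewhere. A second division crossed the genotypes: Xist, the non-coding RNA of X inactivation, was 11.40 and 11.27 on HDAC7-deficient replicates 2 and 3 and 8.51 on wild-type replicate 3 (Xist-high), against 4.87 on HDAC7-deficient replicate 1 and 5.38 and 5.17 on wild-type replicates 1 and 2 (Xist-low). The cut was the midpoint of the lowest and the highest Xist value. Wild-type replicate 3, the only wild-type array called Xist-high, lay between the other Xist-high arrays and the Xist-low ones. Bacterial hybridisation controls showed the same division, averaging 10.21 to 10.96 on Xist-high and 8.86 to 9.41 on Xist-low arrays. Sex and hybridisation thus cannot be told apart. Hdac7 itself, the targeted gene, was 9.95, 9.54 and 9.27 in HDAC7-deficient cells and 9.06, 9.48 and 7.31 in wild-type cells, and since its probes may lie outside the deleted part it does not check the labels. The 13 measured B lineage markers averaged 9.40 to 10.16 in HDAC7-deficient cells and 8.55 to 9.96 in wild-type cells, and the 8 neutrophil granule markers averaged 10.71 to 11.24 in HDAC7-deficient cells and 9.45 to 11.08 in wild-type cells. In such bulk samples fewer cells of a type and less RNA per cell cannot be told apart, and the part of other cells in the results below was not tested.

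The start regions of the genes are shown first because genes of 1 complex can share promoter features and 2 of the genes are X-linked. RefSeq start regions (assembly GRCm38.p6, 250 bases before to 50 bases after a gene's start) were found for 7 of the 9 genes, in 9 windows. The 5 windows below belong to measured genes with a single window. The Hdac2 window lies at chr10:36974294-36974593 on the plus strand. The Hdac8 window lies at chrX:102505109-102505408 on the minus strand. The Tbl1x window lies at chrX:77510977-77511276 on the plus strand. The Tbl1xr1 window lies at chr3:22076402-22076701 on the plus strand. The Gps2 window lies at chr11:69913770-69914069 on the plus strand. Capitals mark 4 motifs searched on both strands: GGGCGG, the GC box bound by SP factors, CCAAT, the box bound by NF-Y, TGACGT, the core of cAMP response elements, and CCGGAA, the core of ETS sites.
Hdac2: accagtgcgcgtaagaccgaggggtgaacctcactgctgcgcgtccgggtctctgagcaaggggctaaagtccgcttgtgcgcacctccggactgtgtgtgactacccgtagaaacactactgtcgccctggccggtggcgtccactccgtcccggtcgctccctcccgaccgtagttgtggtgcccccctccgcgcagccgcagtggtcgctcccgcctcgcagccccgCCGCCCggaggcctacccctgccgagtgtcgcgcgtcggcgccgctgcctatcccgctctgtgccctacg
Hdac8: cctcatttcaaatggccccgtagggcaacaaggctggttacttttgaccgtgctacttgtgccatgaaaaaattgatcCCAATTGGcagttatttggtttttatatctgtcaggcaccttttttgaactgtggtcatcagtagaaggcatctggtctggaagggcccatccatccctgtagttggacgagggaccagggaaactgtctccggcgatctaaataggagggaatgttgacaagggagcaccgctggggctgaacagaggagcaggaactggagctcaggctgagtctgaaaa
Tbl1x: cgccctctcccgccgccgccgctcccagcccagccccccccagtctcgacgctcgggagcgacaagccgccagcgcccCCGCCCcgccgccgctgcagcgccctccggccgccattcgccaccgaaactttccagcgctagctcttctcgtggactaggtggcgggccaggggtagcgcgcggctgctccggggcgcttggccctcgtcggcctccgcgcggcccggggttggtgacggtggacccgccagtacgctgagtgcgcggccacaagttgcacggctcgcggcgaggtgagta
Tbl1xr1: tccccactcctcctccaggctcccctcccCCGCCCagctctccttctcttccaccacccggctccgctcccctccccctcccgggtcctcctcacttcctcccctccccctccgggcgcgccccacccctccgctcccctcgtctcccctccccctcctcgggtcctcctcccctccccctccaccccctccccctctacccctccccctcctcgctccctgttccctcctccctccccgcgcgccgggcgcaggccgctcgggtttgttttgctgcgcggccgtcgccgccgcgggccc
Gps2: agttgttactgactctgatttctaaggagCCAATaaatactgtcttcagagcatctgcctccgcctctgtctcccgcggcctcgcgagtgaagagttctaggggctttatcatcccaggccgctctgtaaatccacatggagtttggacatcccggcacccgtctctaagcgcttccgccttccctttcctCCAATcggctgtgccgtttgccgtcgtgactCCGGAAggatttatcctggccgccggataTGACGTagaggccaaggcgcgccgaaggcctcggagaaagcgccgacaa

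Among these 5 windows that of Hdac8 had the fewest CpG pairs, 6 against 24 in Gps2, 25 in Tbl1xr1, 36 in Hdac2 and 43 in Tbl1x, and a median of 7 over all 32851 windows. Hdac2, Tbl1x and Tbl1xr1 each held 1 GC box and none of the other 3 motifs. Gps2 held 2 CCAAT boxes, 1 TGACGT and 1 CCGGAA and no GC box, and Hdac8 held 2 CCAAT matches that overlap on opposite strands. Of all windows, 35.7% held a GC box, 37.4% a CCAAT box, 7.51% TGACGT and 14.9% CCGGAA. These matches describe letters and not binding.

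None of the 7 measured genes differed between HDAC7-deficient and wild-type pro-B cells in a test over all genes. Changes ran from -0.04 (Hdac8) to 0.64 (Hdac2) with a median of 0.35, with 5 genes above 0, against 48.0% of all genes, and 2 below. No gene of the 7 passed a limma adjusted p of 0.05, and 0.0% of all 17097 genes did; the lowest adjusted p of the 7 was 0.423, for Gps2. At an unadjusted p under 0.05 the count was likewise 0 of 7, against 12.7% of all genes. Without wild-type replicate 3 the median of the 7 genes was -0.05, with 2 above 0, against 43.2% of all genes, and 5 below. Again 0 of 7 had an unadjusted limma p under 0.05, against 14.0% of all genes. The probe sets there were still those brightest over 6 arrays. Without that array, 1434643_PM_at of Tbl1x and 1450739_PM_at of Tbl1xr1 were brighter on average. Their changes were then 0.08 and 0.04, in place of -0.01 and -0.08. The count above 0 and the median thus depend on the choice of probe set. With the Xist division as a block, 6 of 7 lay above 0 on 6 arrays (median 0.60), against 48.1% of all genes. Wild-type replicate 3 is there the only Xist-high wild-type array. With that block and without wild-type replicate 3, 6 of 7 lay above 0 (median 0.10), against 45.9% of all genes. The only Xist-high arrays left there were HDAC7-deficient replicates 2 and 3, so the block absorbed both. That median thus rests on a single array of its genotype, HDAC7-deficient replicate 1, and cannot tell genotype from array. The direction depended on the scaling as well: 4 of 7 lay above 0 after quantile normalization and 7 of 7 after centring each array on its median. The median change of all genes was -0.05 and 0.10 in these settings, and the share of all genes above 0 was not counted. Centring moved every change up by the same amount, which lifted the 2 genes that lay just below 0. All genes together had a median change of -0.03 with 6 arrays and -0.05 without that array. The 4274 genes of highest mean expression, which held 6 of the 7, had medians of 0.56 and, without that array, 0.06, with 3828 and 2560 genes above 0.

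**Figure D1:**
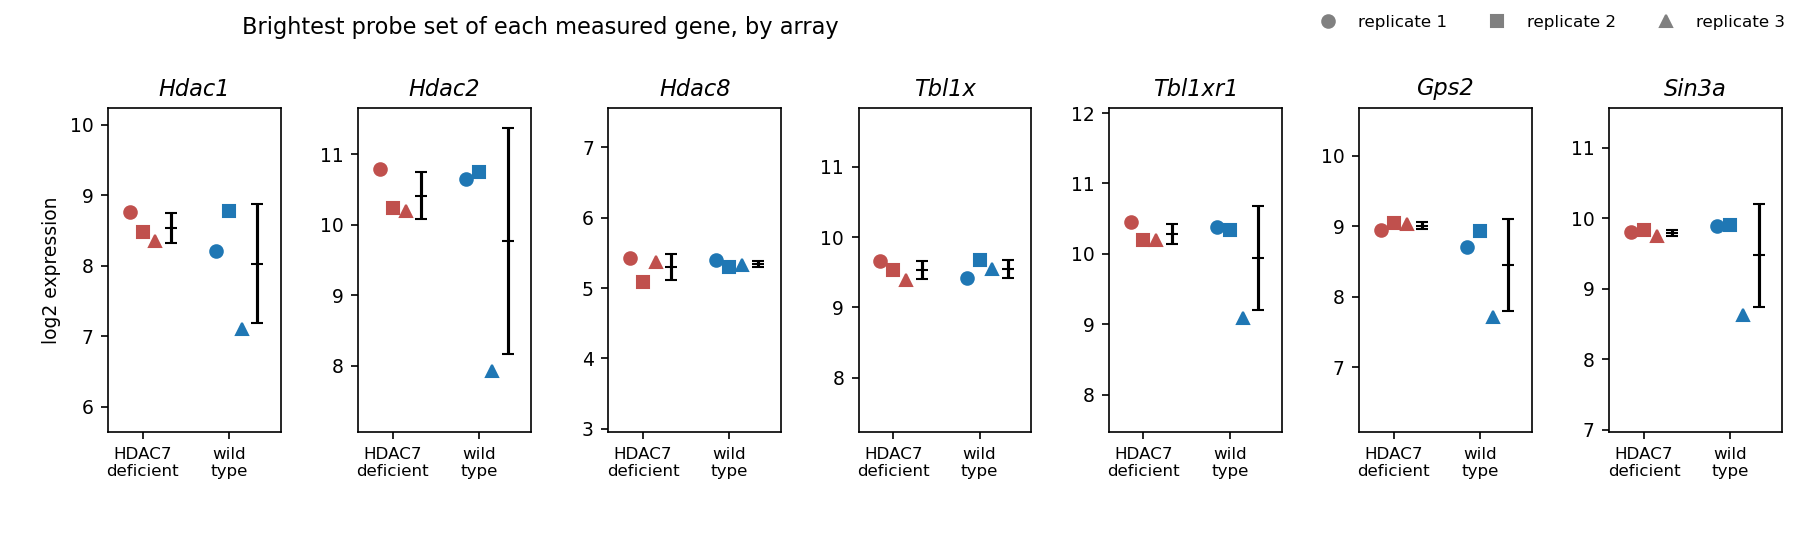
Log2 expression (y axis, each panel spanning the same range) of the brightest probe set of 7 genes on 3 HDAC7-deficient (red) and 3 wild-type (blue) arrays, with bars for group mean ± SD. Wild-type replicate 3 (blue triangle) lies below all other arrays in 5 panels and among them for Hdac8 and Tbl1x.

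Hdac1 and Hdac2 encode the paired catalytic subunits. Hdac1 (probe set 1448246_PM_at, chromosome 4) was 8.77, 8.48 and 8.35 in HDAC7-deficient cells and 8.21, 8.77 and 7.11 in wild-type cells. The groups overlapped, and apart from wild-type replicate 3 the 5 arrays spanned 0.56. The means were 8.53 ± 0.21 in HDAC7-deficient cells and 8.03 ± 0.85 in wild-type cells (SD, n = 3 each), a change of 0.50 ± 0.46 (SE) with a limma adjusted p of 0.492. Without wild-type replicate 3 the change was 0.04 with a 95% interval of -0.52 to 0.60.

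Hdac2 (1449080_PM_at, chromosome 10) was 10.80, 10.25 and 10.20 in HDAC7-deficient cells and 10.65, 10.76 and 7.92 in wild-type cells. Wild-type replicate 3 differed by -2.61 from the mean of the other arrays, the largest gap among the brightest probe sets of the 7 genes. Group means were 10.41 ± 0.33 in HDAC7-deficient cells and 9.77 ± 1.61 in wild-type cells (SD, n = 3 each), and the change of 0.64 ± 0.77 (SE) had a limma adjusted p of 0.577. Without that array it turned to -0.29, with a 95% interval of -0.70 to 0.13 and a limma adjusted p of 0.488. On the remaining 5 arrays this probe set of Hdac2 divided between Xist-high and Xist-low arrays. The Xist-high arrays left were all HDAC7 deficient, so these 5 arrays cannot assign the split to Xist or to genotype. HDAC7-deficient replicate 1 lay with wild-type replicates 1 and 2. HDAC7-deficient replicates 2 and 3 lay lower, differing from HDAC7-deficient replicate 1 by -0.58 on average. Within the Xist-low arrays the change was 0.10. The averages of all 6 cell type marker lists also set HDAC7-deficient replicates 2 and 3 apart from the Xist-low arrays. The B lineage average was lower there and the others were higher. Of all genes, 13.7% were lower on both than on the Xist-low arrays, and 12.1% were higher. The B lineage markers averaged 9.47 and 9.40 on HDAC7-deficient replicates 2 and 3, against 9.69 to 10.16 on the Xist-low arrays, and 8 of the 13 were lower there on both. The neutrophil markers averaged 11.22 and 11.24 against 10.71 to 11.08 (5 of 8 higher on both), and the macrophage markers 7.41 and 7.17 against 6.81 to 6.97 (4 of 8). The plasmacytoid dendritic cell markers averaged 10.49 and 10.41 against 9.58 to 9.99 (6 of 6), the T cell markers 7.50 and 7.36 against 6.89 to 7.23 (3 of 7) and the erythroid markers 7.27 and 7.23 against 6.10 to 6.88 (3 of 4). Their part in the levels of Hdac2 and the other genes was not tested.

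The second Hdac2 probe set (1439704_PM_at) ran the other way on wild-type replicate 3. It was 6.16, 5.97 and 5.74 in HDAC7-deficient cells and 6.13, 5.79 and 7.32 in wild-type cells. On it HDAC7-deficient replicate 2 lay above wild-type replicate 2, so the Xist division seen on the brightest probe set did not hold. Its change was -0.45 ± 0.41 (SE; limma adjusted p = 0.494 over probe sets) and 0.00 without wild-type replicate 3. The mean of both probe sets gave Hdac2 a change of 0.09 in place of 0.64, so its place as the largest change of the 7 rests on the brightest probe set. Of the 7180 genes with more than 1 probe set, 17.0% likewise had wild-type replicate 3 lowest of the 6 arrays on one probe set and highest on another.

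Hdac8 encodes a class I enzyme that works outside the large corepressor complexes and deacetylates the cohesin subunit SMC3. Its probe set (1428933_PM_at, chromosome X) was 5.43, 5.08 and 5.37 in HDAC7-deficient cells and 5.39, 5.30 and 5.32 in wild-type cells. All 6 values lay within 0.34 of each other, wild-type replicate 3 included. The change was -0.04 ± 0.16 (SE; limma adjusted p = 0.858), with a 95% interval of -0.43 to 0.34. This probe set stood between percentiles 16.1 and 34.4 of the genes of its array, so a level near background limits what it can show. Hdac8 was the only one of the 7 genes outside the 4274 genes of highest mean expression.

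TBL1X and TBL1XR1 are closely related WD40 repeat proteins of the NCoR complex that help exchange corepressors for coactivators. Tbl1x (1455042_PM_at, chromosome X) was 9.66, 9.54 and 9.40 in HDAC7-deficient cells and 9.42, 9.67 and 9.55 in wild-type cells. The ranges of the 2 groups coincided almost fully. The change was -0.02 ± 0.28 (SE) with a limma adjusted p of 0.972, and -0.01 without wild-type replicate 3, with a 95% interval of -0.39 to 0.36. Tbl1x and Hdac8 are the X-linked genes of the set. Within HDAC7-deficient cells the mean of the Xist-high arrays differed from the single Xist-low array by -0.19 for Tbl1x and -0.20 for Hdac8. Of the autosomal genes, Hdac2 (-0.58), Hdac1 (-0.35) and Tbl1xr1 (-0.25) differed by more, and Sin3a (-0.02) and Gps2 (0.09) by less.

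The other Tbl1x probe sets read wild-type replicate 3 lower than all other arrays. Probe set 1434643_PM_at was 9.84, 9.85 and 9.81 in HDAC7-deficient cells and 9.63, 9.88 and 7.59 in wild-type cells, and 1434644_PM_at was 8.53, 8.67 and 8.54 in HDAC7-deficient cells and 8.0, 8.72 and 6.87 in wild-type cells. Their changes of 0.80 ± 0.61 and 0.72 ± 0.48 (SE) were 0.08 and 0.22 without that array. Averaging the 3 probe sets gave Tbl1x a change of 0.50 in place of -0.02, again short of the limma threshold (adjusted p = 0.452).

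Tbl1xr1 (1434839_PM_s_at, chromosome 3) was 10.45, 10.20 and 10.20 in HDAC7-deficient cells and 10.38, 10.34 and 9.09 in wild-type cells. The suffix s_at marks probe sets that match more than one transcript. The change was 0.35 ± 0.42 (SE; limma adjusted p = 0.583) and -0.08 without wild-type replicate 3, with a 95% interval of -0.36 to 0.21. As for Hdac2, HDAC7-deficient replicates 2 and 3 lay below the 3 Xist-low arrays, which held for 2 of the 7 genes and 13.7% of all genes. The opposite, both above the Xist-low arrays, held for Gps2 alone of the 7 and for 12.1% of all genes.

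Of the 4 other Tbl1xr1 probe sets, 2 read wild-type replicate 3 lower than all other arrays and the other 2 did not. Probe set 1450739_PM_at was 10.37, 10.50 and 10.48 in HDAC7-deficient cells and 10.29, 10.53 and 7.66 in wild-type cells, so its first 5 values spanned 0.24 and the last differed from their mean by -2.77. Probe set 1422761_PM_at was 7.02, 6.56 and 6.69 in HDAC7-deficient cells and 6.12, 6.84 and 4.95 in wild-type cells. The dimmest, 1457186_PM_at, was 4.32, 4.96 and 4.81 in HDAC7-deficient cells and 3.99, 3.94 and 4.65 in wild-type cells. Its change of 0.73 without wild-type replicate 3 was the only one of the 17 probe sets at an unadjusted p under 0.05 (limma adjusted p = 0.168), where 15.2% of all probe sets were. The remaining one, 1455109_PM_at, had changes of 0.12 and, without that array, 0.23. The mean of the 5 probe sets had a change of 0.54 with all arrays, in place of 0.35.

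Gps2 encodes a small subunit that holds the NCoR complex together and inhibits JNK signalling. It was 8.95, 9.05 and 9.04 in HDAC7-deficient cells and 8.71, 8.94 and 7.72 in wild-type cells (1417796_PM_at, chromosome 11). Every HDAC7-deficient array lay above every wild-type array, with a gap of 0.01 between HDAC7-deficient replicate 1 and wild-type replicate 2. Of the 7 genes, 1 was higher without overlap, against 9.45% of all genes. The means were 9.01 ± 0.05 in HDAC7-deficient cells and 8.46 ± 0.65 in wild-type cells (SD, n = 3 each), a change of 0.56 ± 0.39 (SE) with a limma adjusted p of 0.423. Without wild-type replicate 3 the change was 0.19, with a 95% interval of -0.22 to 0.60 and a limma adjusted p of 0.656, and the groups still did not overlap, as for 11.8% of all genes on the higher side. After quantile normalization of all 6 arrays the change was 0.10.

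Sin3a encodes the scaffold that holds HDAC1 and HDAC2 in the SIN3 complex. It was 9.81, 9.83 and 9.75 in HDAC7-deficient cells and 9.89, 9.91 and 8.63 in wild-type cells (1419101_PM_at, chromosome 9). The 5 arrays other than wild-type replicate 3 spanned only 0.16, less than for any other of the 7 genes. The change was 0.32 ± 0.42 (SE; limma adjusted p = 0.612). Without wild-type replicate 3 it was -0.11, with a 95% interval of -0.40 to 0.19, and the HDAC7-deficient arrays then all lay below the wild-type ones, as in 19.0% of all genes.

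The 3 other Sin3a probe sets read wild-type replicate 3 lower still. Probe set 1449343_PM_s_at was 9.75, 9.64 and 9.44 in HDAC7-deficient cells and 9.68, 9.73 and 6.73 in wild-type cells. Probe set 1419900_PM_at was 9.26, 9.04 and 9.04 in HDAC7-deficient cells and 9.06, 9.16 and 6.63 in wild-type cells. Both groups lay together apart from that array. Probe set 1419102_PM_at was 8.66, 8.80 and 8.69 in HDAC7-deficient cells and 8.17, 8.86 and 6.40 in wild-type cells. Without that array the 3 changes were -0.10, 0.00 and 0.20. The mean of the 4 Sin3a probe sets had a change of 0.74 with all arrays, in place of 0.32.

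**Figure D2:**
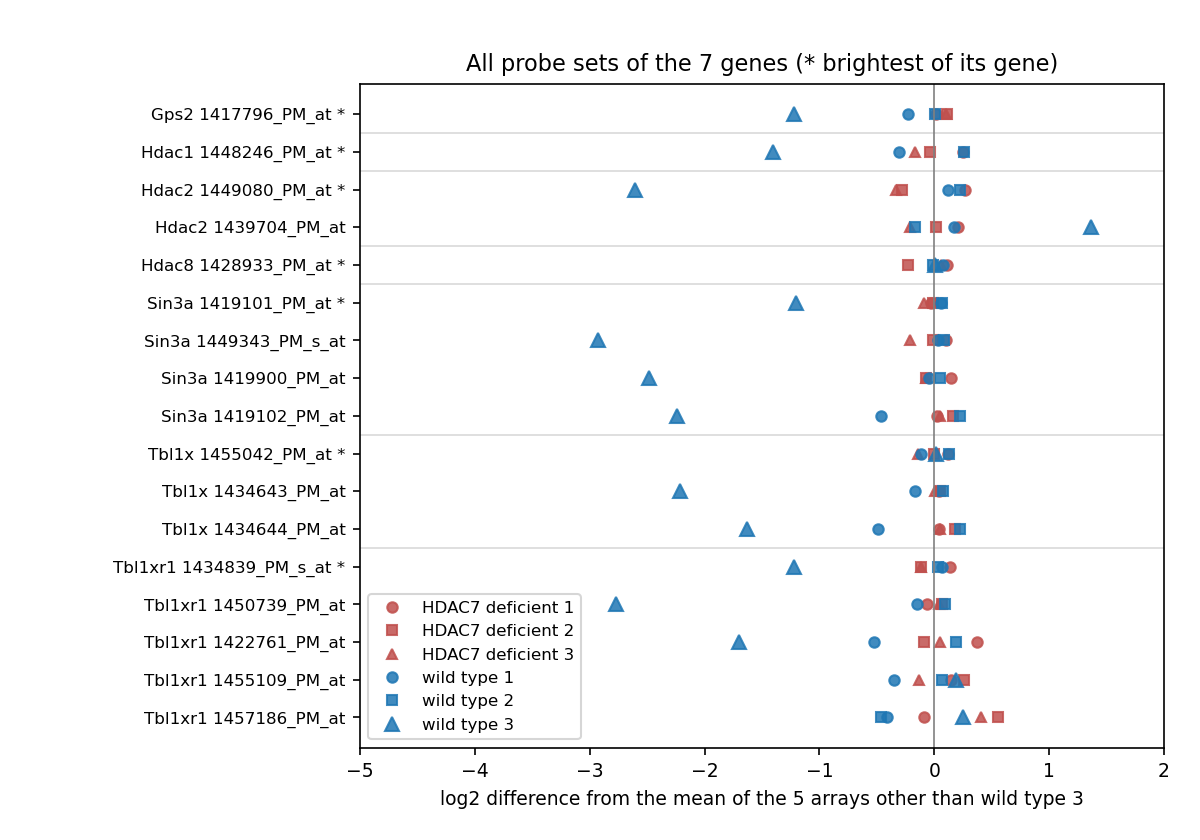
Each row is 1 of the 17 probe sets of the 7 genes, and the x axis is the log2 difference of each array from the mean of the 5 arrays other than wild-type replicate 3 (red, HDAC7 deficient; blue, wild type; shape, replicate). Wild-type replicate 3 lies lowest in 12 rows, highest in 1 (1439704_PM_at of Hdac2) and among the others in 4.

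Probe sets of 1 gene thus disagreed most on wild-type replicate 3. With all arrays 0 of the 17 probe sets had an unadjusted p under 0.05, against 14.1% of all probe sets. Wild-type replicate 3 was the lowest of the 6 arrays on 12 of the 17 probe sets, against 31.1% of all probe sets, and the highest on 1, against 47.3%. By gene it was lowest for 5 of 7, against 37.8% of all genes and 85.0% of the 4274 genes of highest mean expression, among which were 6 of the 7. The deviation of wild-type replicate 3 from the other arrays spread over 3.97 between the probe sets of Hdac2, 3.02 for Tbl1xr1, 2.23 for Tbl1x and 1.72 for Sin3a. The same spread for any other array reached at most 1.27 in these 4 genes. Over all 7180 genes with several probe sets the median spread was 0.91 on wild-type replicate 3 and 0.27 to 0.38 on the others.

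Rank within the array, which ignores its scale, gave a partly different picture. Hdac2 stood at percentile 86.9 of the genes of wild-type replicate 3, against 95.6 to 97.9 on the other arrays, and Hdac1 at 70.2 against 78.5 to 82.3. Gps2 stood at 83.9, Sin3a at 93.5 and Tbl1xr1 at 95.6, inside the ranges of the other arrays (83.6 to 86.5, 92.2 to 94.3 and 95.3 to 96.8). Tbl1x stood higher, at 97.1 against 90.0 to 91.4, and Hdac8 lower, at 16.1 against 25.4 to 34.4. On that array the brightest probe sets of Gps2, Sin3a and Tbl1xr1 were thus lower in log2 value and not in rank. Those of Hdac1 and Hdac2 were lower in both. Ranks were taken for the brightest probe sets only. The other Sin3a probe sets differed there from the mean of the other arrays by -2.92, -2.48 and -2.24, against -1.21. For Tbl1xr1, 1450739_PM_at and 1422761_PM_at differed by -2.77 and -1.70, against -1.23, and 1455109_PM_at and 1457186_PM_at by 0.19 and 0.25.

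**Figure D3:**
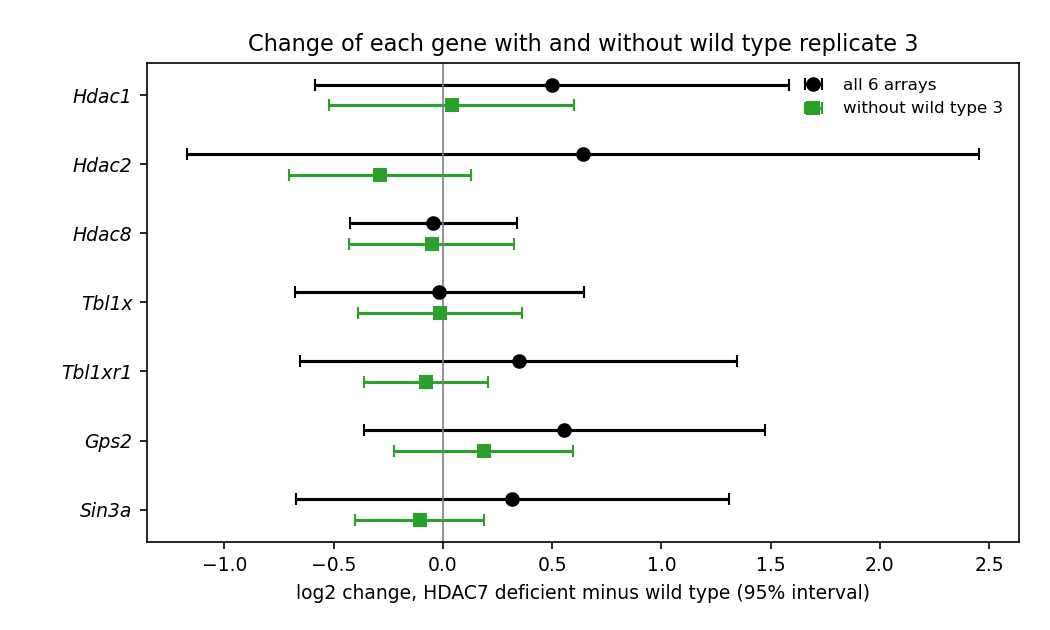
Log2 change of 7 genes, HDAC7 deficient minus wild type, with 95% limma intervals, from all 6 arrays (black circles) and without wild-type replicate 3 (green squares). Every interval spans 0, and without that array none reaches beyond -0.70 or 0.60.

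The brightest probe sets of the genes differed from each other most on wild-type replicate 3. Its difference from the mean of the other arrays ran from -2.61 (Hdac2) to 0.02 (Tbl1x). On the other Tbl1x probe sets it was -2.22 and -1.63, and on the second Hdac2 probe set 1.36. The places of Tbl1x and Hdac2 below thus rest on their brightest probe sets. With each gene centred on its mean over 6 arrays, Tbl1xr1 lay nearest to the mean profile of the 7, with a root mean square difference of 0.08, then Sin3a with 0.09, Gps2 with 0.15 and Hdac1 with 0.18. Tbl1x (0.42), Hdac8 (0.42) and Hdac2 (0.59) lay farthest, and without that array these 3 stood at 0.05, 0.12 and 0.18. Outside the set the nearest genes over 6 arrays were the mitochondrial ribosomal protein genes Mrpl16 (0.04) and Mrpl39 (0.04), the ribosome assembly gene Noc4l (0.04) and the adaptor gene Crkl (0.05). Over the 5 other arrays they were the ubiquitin-conjugating enzyme gene Ube2r2, the chaperonin subunit gene Cct5, the inositol hexakisphosphate kinase gene Ip6k2 and Tha1, at 0.01 to 0.02, a different set. Mrpl16, for instance, was 9.28, 9.15 and 9.14 in HDAC7-deficient cells and 9.21, 9.37 and 8.11 in wild-type cells.

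The other genes of the deacetylase complexes were read from 5 lists, of which 49 genes were measured. No listed gene passed a limma adjusted p of 0.05, and 2 of the 49 had an unadjusted p under 0.05, against 12.7% of all genes. The 49 had a median change of 0.53, with 39 above 0, and 0.14 without wild-type replicate 3, with 34 above 0. Of all genes 48.0% lay above 0, and 43.2% without that array. Of the 4274 genes of highest mean expression 3828 did, and 2560 without that array. All 6 other deacetylase genes measured, Hdac7 included, lay above 0 with and without that array, with medians of 0.70 and 0.35. Without it Hdac11 changed by only 0.005, and the median of the 7 genes was -0.05. The difference between the lists was not tested.

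Hdac10 led the other deacetylases by p, with 7.34, 7.31 and 7.19 in HDAC7-deficient cells and 6.77, 7.0 and 6.25 in wild-type cells, a change of 0.61 ± 0.27 (SE). The tubulin deacetylase gene Hdac6 differed by 0.78 ± 0.40 and Hdac7 by 0.97 ± 0.59. Limma adjusted p-values of these 3 were 0.377 to 0.399. Without wild-type replicate 3 their changes were 0.39, 0.45 and 0.31.

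The SIN3 list (16 genes) had 15 genes above 0 and a median of 0.56, or 0.17 with 11 above 0 without wild-type replicate 3. Arid4a, a chromatin-binding subunit, was 8.13, 8.41 and 8.34 in HDAC7-deficient cells and 7.32, 7.75 and 7.60 in wild-type cells. Its groups did not overlap, wild-type replicate 3 lay inside its group, and its change was 0.74 ± 0.27 (SE; limma adjusted p = 0.377), or 0.76 without that array. Mxd1, a MAX partner that recruits SIN3, differed by 0.97 ± 0.43, and the subunit gene Sap30 by 1.07 ± 0.50, or 0.58 and 0.50 without that array. Sin3b, the paralog of Sin3a, was 9.46, 9.65 and 9.57 in HDAC7-deficient cells and 9.29, 9.53 and 6.86 in wild-type cells, a change of 1.0 ± 0.70, or 0.15 without that array.

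NuRD genes (10 measured) had a median of 0.52 and CoREST genes (8 measured) of 0.61, which without wild-type replicate 3 were 0.00 and 0.27. In NuRD the remodeller gene Chd3 differed by 0.62 ± 0.42, Mta3 by 0.57 ± 0.42 and Gatad2a by 0.66 ± 0.58 (SE), and without that array by 0.25, 0.15 and -0.02. In CoREST the zinc finger gene Zmym2 differed by 0.63 ± 0.28, Hmg20b by 0.96 ± 0.50 and Rcor2 by -0.77 ± 0.34, or by 0.51, 0.39 and -0.43. Limma adjusted p-values of these 6 genes were 0.377 to 0.483. The 9 transcription factors and other partners of NCoR had medians of -0.02 and, without that array, 0.04. The zinc finger factor Zbtb16 was 5.70, 5.84 and 5.49 in HDAC7-deficient cells and 6.17, 6.04 and 6.76 in wild-type cells, a change of -0.65 ± 0.25 (SE; limma adjusted p = 0.377). Nr1d2, a nuclear receptor that represses through NCoR, differed by -0.31 ± 0.21 and the thyroid hormone receptor gene Thrb by -0.33 ± 0.23, or by -0.23 and -0.27 without that array.

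**Figure D4:**
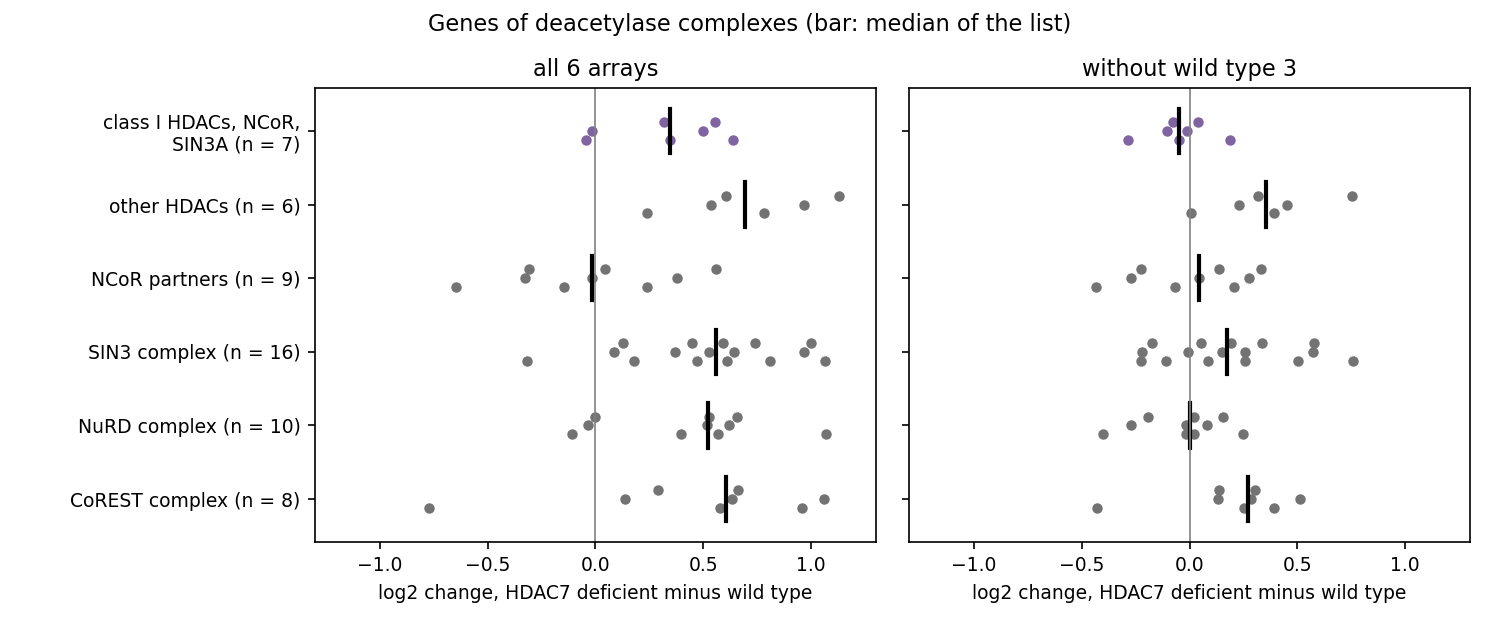
Log2 change, HDAC7 deficient minus wild type, of each measured gene (points) in 6 lists, with all arrays (left) and without wild-type replicate 3 (right); black bars are list medians. The top row, the 7 genes of the class I deacetylases and their corepressors, has medians of 0.35 and -0.05.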

How the data were processed

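The authors deposited log2 values, 1 for each probe set on each array. The sources used here do not give their normalization, and the scale was inferred from the range of the values. Per the labels' protocols, RNA was amplified by whole transcriptome amplification, biotin labelled and hybridised to Affymetrix mouse PM arrays. Of 45141 probe sets, 104 controls were set aside; of the 45037 left, 28898 had 1 symbol in the platform annotation, 551 several and 15588 none. By Entrez number, 28689 were matched to current RefSeq symbols (GRCm38.p6). Each of 17097 genes was represented by its brightest probe set.

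Groups were compared with limma 3.58.1 (R 4.3.3): lmFit and eBayes with an intensity trend, two-sided, Benjamini-Hochberg over all genes or all probe sets, threshold 0.05, 95% intervals. The fit was tested on simulated independent normal values with equal variance in both groups. These held no deviating array, so that test does not cover a case like wild-type replicate 3. With 3 arrays a group, the smallest exact permutation p is 0.1. The number of arrays limits the precision. The members, lists, alternatives and naming rule were chosen with earlier results of these data known. Named were all members, the 3 genes of each list with the smallest p, Hdac7 and Sin3b, and the 4 genes nearest to the members' mean profile, with and without wild-type replicate 3. By genotype, macrophage markers (8 genes) averaged 6.81 to 7.41 in HDAC7-deficient cells and 6.86 to 6.97 in wild-type cells, plasmacytoid dendritic cell markers (6) 9.94 to 10.49 in HDAC7-deficient and 7.37 to 9.99 in wild-type cells, T cell markers (7) 7.01 to 7.50 in HDAC7-deficient and 6.63 to 7.23 in wild-type cells, and erythroid markers (4) 6.10 to 7.27 in HDAC7-deficient and 6.62 to 6.88 in wild-type cells.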

Additional observations from a re-analysis of the deposited data

How the results depend on the processing

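No gene passed a limma adjusted p of 0.05 with all arrays, nor with any 1 array left out (0 to 0), and the same held for probe sets (0 to 0). With the replicate number as a block (replicate block) 1 gene passed, Hspa1b. With the Xist division as a batch block and wild-type replicate 3 left out, 4 genes (Fos, Fosb, Jun and H1f2) and 2 probe sets (of Fos and Fosb) did. These names were picked for their values, and none is among the 9 genes. The replicate block changed no other call. Same-numbered arrays deviated from their group means with correlations of 0.08, 0.18 and 0.45 for replicates 1, 2 and 3. HDAC7-deficient replicates 2 and 3 correlated best with the wild-type array of their own number. HDAC7-deficient replicate 1 correlated best with wild-type replicate 2 (0.35). Deviations within a group of 3 depend on each other, so these correlations cannot settle whether the arrays are paired. The numbers were not taken as pairs. With 1 array left out, the median of the 7 genes ran from -0.0517 (without wild-type replicate 3) to 0.567. Of 97 changes of single genes under 14 alternatives, 23 equal the reported value by construction; of the other 74, 58 kept their direction and 16 turned. None of the 97 passed the threshold. With 1 array left out Hdac2 ran from -0.287 to 1.13, Hdac8 from -0.110 to 0.0622, Tbl1x from -0.0793 to 0.0511, Tbl1xr1 from -0.0773 to 0.567 and Sin3a from -0.106 to 0.532. Leaving out wild-type replicate 3 gave the lowest values of Hdac2, Tbl1xr1 and Sin3a. Quantile normalization turned Hdac8 (0.201), Tbl1xr1 (-0.00368) and Sin3a (-0.104). Median centring, which moved the median change of all genes to 0.10, turned Hdac8 (0.0917) and Tbl1x (0.12). The Xist block turned Tbl1x (0.0150). It moved Hdac2 to 1.20, Hdac1 to 0.79, Tbl1xr1 to 0.60 and Sin3a to 0.53 (limma adjusted p = 0.121 to 0.259). With wild-type replicate 3 left out as well, that block turned Hdac8 (0.0813), Tbl1x (0.115) and Sin3a (-0.0951). The mean over probe sets turned Tbl1x (0.501) and moved Hdac2 to 0.094, Sin3a to 0.74 and Tbl1xr1 to 0.54. The cause was not tested. Hdac8 had no value once the dimmest 25% of genes were left out.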
